A study of Homo sapiens with 8 samples.

Results

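The comparison set experiment 2 against experiment 1 in SET-2 cells, over both genotypes, and asked which programmes of gene expression differed between the experiments across all genes. All 8 of the 8 libraries of the series entered it, 4 per experiment, chosen by the experiment number in each library's label and not by any measured value. SET-2 is a line from an essential thrombocythemia that had turned into megakaryoblastic leukemia. Each experiment held 2 ZRSR2 knockout libraries, made with guide 1 or guide 2 against ZRSR2, and 2 control libraries labelled ZRSR2 wildtype, made with non-targeting guide 1 or 2. Guides were brought in by a PLKO5 GFP virus, and all libraries are of transduced cells of this one line, with no treatment listed. The protocol ties biological replicate 1 to day 20 and biological replicate 2 to day 25 after transduction, and the experiment number is assumed here to be that replicate number. Day, batch, culture drift and experiment cannot be told apart in this design. The p-values measure the spread between libraries of different guides and not between repeated collections.

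Megakaryocytes and red cells come from a shared progenitor, and a megakaryoblastic line keeps genes of both fates under factors such as GATA1. Cells also run general programmes that change with their surroundings. Hypoxia-inducible factors switch on genes for glucose uptake, glycolysis and matrix enzymes when oxygen is low. Serum response factor, SRF, links the state of actin to the transcription of cytoskeletal genes, ERK signalling switches on immediate early genes, and heat shock factors drive chaperones. Ribosome biogenesis genes make and process ribosomal RNA, and MHC molecules present peptides to T cells.

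Libraries held between 31106042 and 71521173 counts. Levels are given in CPM, counts per 1000000 counts of a library after scaling, and the log2 ratio of a gene is its fitted log2 fold change of experiment 2 over experiment 1, with its standard error (SE). Lists of 4 values are in the order knockout guide 1, knockout guide 2, non-targeting guide 1 and non-targeting guide 2. Of the variance between libraries, 77% lay on 1 axis that separated the experiments. The non-targeting guide 2 library of experiment 2 and the knockout guide 2 library of experiment 1 stood apart from their fellows most often, and 9124 and 8652 genes were called without the one or the other, against 8986 with all. Of 34 megakaryocyte and platelet markers, 30 were tested, and ITGA2B, the platelet integrin chain, lay between 2085 and 2708 CPM. GP1BB was at 0 in all 8 libraries, and PF4V1, P2RY12 and TREML1 were at most at 0.135 CPM. The targeted gene ZRSR2, a splicing factor of minor introns, was at 29.4, 22.9, 37.9 and 39.2 CPM in experiment 1 and 28.3, 18.7, 39.7 and 41.1 CPM in experiment 2. It did not pass the test between experiments, with a log2 ratio of −0.04 (SE 0.12). Knockout means a guide label, since transcript remained and protein was not measured. Of 123 genes described here by value, 31 share exon bases in GENCODE 29 with another symbol of the table, 20 of them on the opposite strand, among them MMP1, ALDH1A2, LOX, PNCK, ENO1 and CA9. The use of strand is not given in the sources used here, so reads of such pairs cannot be told apart. Counts of near-identical genes, such as HBA1, HBG2 and the HLA and histone genes, depend on how RSEM divided shared reads.

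Promoter windows of 5 genes are shown because they belong to lists in which most members shifted one way. Each is the RefSeq sequence of the 250 bases before the gene's start on GRCh38.p14, read 5′ to 3′ on the gene's strand. CA9 (chr9:35673678-35673927, plus strand), BNIP3 (chr10:131981924-131982173, minus strand) and ANKRD37 (chr4:185396591-185396840, plus strand) belong to the hypoxia list, and capitals mark ACGTG or GCGTG on either strand, the core letters of a hypoxia response element. HSPA8 (chr11:123062137-123062386, minus strand) is a heat shock gene, and capitals mark GAANNTTC, letters of a heat shock element. ACTG1 (chr17:81512800-81513049, minus strand) is an actin gene, and capitals mark a CArG box, the SRF motif.
CA9: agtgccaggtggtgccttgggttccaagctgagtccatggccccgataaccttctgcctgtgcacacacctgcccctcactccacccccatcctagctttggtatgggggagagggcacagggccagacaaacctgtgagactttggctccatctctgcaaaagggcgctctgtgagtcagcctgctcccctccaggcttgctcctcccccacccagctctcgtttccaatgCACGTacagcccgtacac
BNIP3: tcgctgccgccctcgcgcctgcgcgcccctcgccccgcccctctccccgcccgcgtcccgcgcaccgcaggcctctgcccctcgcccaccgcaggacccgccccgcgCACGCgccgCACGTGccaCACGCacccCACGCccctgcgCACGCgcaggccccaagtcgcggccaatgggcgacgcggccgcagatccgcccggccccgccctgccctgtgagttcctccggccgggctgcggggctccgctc
ANKRD37: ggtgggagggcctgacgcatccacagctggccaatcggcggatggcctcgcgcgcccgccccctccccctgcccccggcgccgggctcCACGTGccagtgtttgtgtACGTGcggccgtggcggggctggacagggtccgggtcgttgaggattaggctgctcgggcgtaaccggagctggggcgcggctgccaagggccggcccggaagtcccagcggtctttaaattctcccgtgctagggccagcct
HSPA8: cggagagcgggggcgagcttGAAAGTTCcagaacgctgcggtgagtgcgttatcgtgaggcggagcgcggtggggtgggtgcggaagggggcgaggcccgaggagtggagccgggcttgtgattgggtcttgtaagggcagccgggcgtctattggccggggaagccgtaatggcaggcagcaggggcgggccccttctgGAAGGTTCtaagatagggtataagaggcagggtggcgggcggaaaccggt
ACTG1: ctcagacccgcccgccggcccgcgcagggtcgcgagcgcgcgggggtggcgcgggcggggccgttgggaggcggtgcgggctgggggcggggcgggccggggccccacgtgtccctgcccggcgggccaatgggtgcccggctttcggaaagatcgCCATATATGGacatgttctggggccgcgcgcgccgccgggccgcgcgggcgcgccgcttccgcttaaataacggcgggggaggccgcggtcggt

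The letters ACGTG or GCGTG, which overlap CACGTG, were found in the window of 17 of the 20 hypoxia genes with a promoter entry, or 85%, and in 63.7% of 10700 tested genes. They were also found in 24 of 32 ribosome biogenesis genes, or 75%. GAANNTTC was found in 10 of 17 heat shock genes, or 58.8%, against 5.81% of all. A CArG box was found in 7 of 21 genes of the actin and SRF list, or 33.3%, against 1.48% of all. TGANTCA, the letters of an AP-1 site, was found in 0 of 18 genes of the ERK and immediate early list and in 6.34% of all. A CArG box was found in 2 of these 18, or 11.1%. The hypoxia, heat shock and SRF lists were written as genes of those responses, so these shares say nothing about the difference between experiments. A match is a description of letters, and binding was not measured.

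The 2 experiments differed in most of the genes tested. In edgeR's quasi-likelihood test with genotype as covariate, 8986 of 14898 genes passed an adjusted p of 0.05, or 60.3%. Experiment 2 was the higher in 4548 of them (30.5%) and the lower in 4438 (29.8%). A change of at least 2-fold was reached by 1303 of the higher genes (8.75%) and 814 of the lower (5.46%), together 14.2%. Many of the changes were small, and 4470 of the called genes (49.7%) changed by less than 1.5-fold. The 4 libraries of one experiment did not overlap the 4 of the other in 56.0% of the tested genes. The median log2 fold change over all genes was 0.0035.

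**Figure D1:**
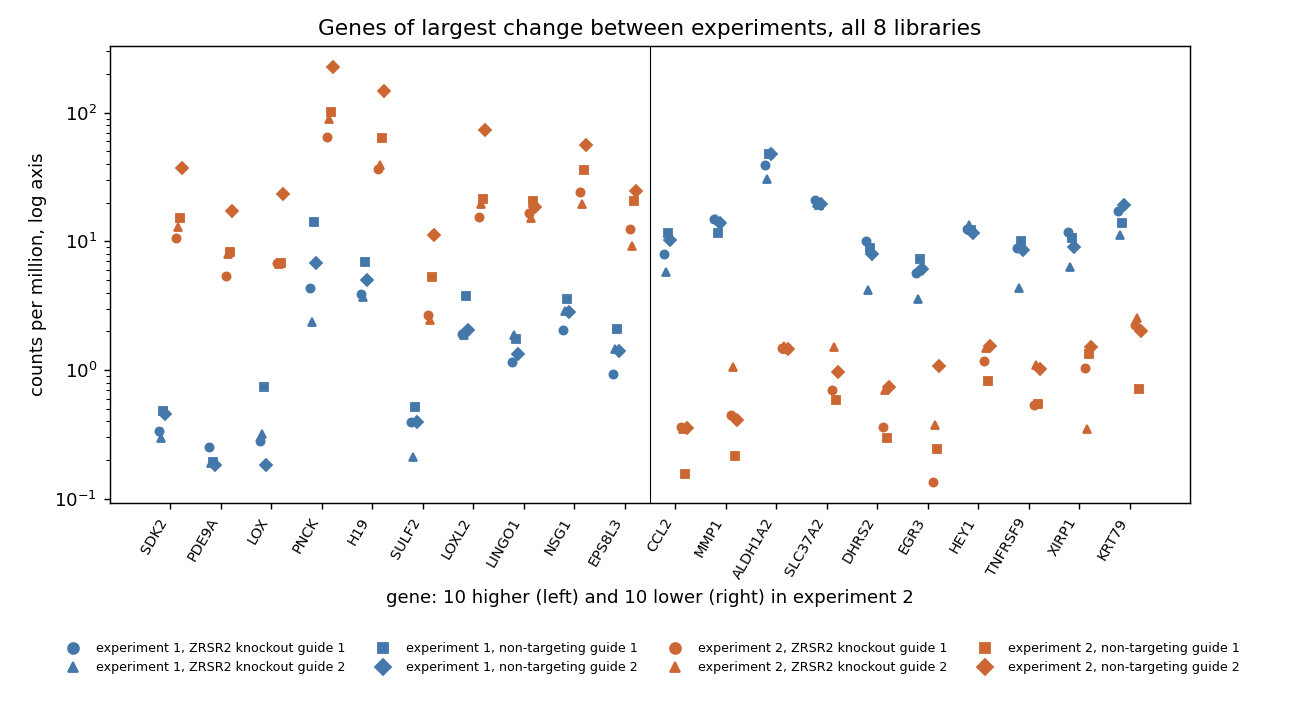
CPM on a log axis in each of the 8 libraries for the 10 genes of largest rise and the 10 of largest fall that passed the test with at least 5 CPM in the higher experiment and no overlap, colour for experiment and shape for guide. In experiment 2 the non-targeting guide 2 library stands highest in 9 of the 10 risen genes, all but LINGO1.

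The 3 genes given as markers of the comparison were SDK2, MMP1 and ALDH1A2. SDK2, a sidekick adhesion molecule of the immunoglobulin superfamily, was at 0.337, 0.297, 0.485 and 0.457 CPM in experiment 1 and 10.7, 13, 15.2 and 37 CPM in experiment 2. MMP1, interstitial collagenase, was at 14.9, 15, 11.6 and 13.8 CPM and then 0.451, 1.05, 0.214 and 0.412 CPM. ALDH1A2, which makes retinoic acid from retinal, was at 39.1, 30.7, 48 and 47.6 CPM and then 1.49, 1.55, 1.45 and 1.46 CPM. Each was on one side in all 4 libraries of an experiment, as were 56.0% of all tested genes. Within experiment 2 SDK2 was spread over 3-fold while ALDH1A2 lay in a narrow band. The log2 ratios were 5.53 (SE 0.32), −4.79 (SE 0.27) and −4.79 (SE 0.14), with edgeR adjusted p-values of 1.49e-07, 1.34e-07 and 1.63e-09.

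Beside SDK2, the largest rises were in PDE9A, a cyclic GMP phosphodiesterase, and LOX and LOXL2, enzymes that cross-link collagen. PDE9A was at 0.253, 0.191, 0.194 and 0.183 CPM in experiment 1 and 5.43, 7.92, 8.25 and 17.3 CPM in experiment 2. LOX went from 0.281, 0.318, 0.744 and 0.183 CPM to 6.78, 6.68, 6.86 and 23.3 CPM, and LOXL2 from 1.91, 1.86, 3.79 and 2.04 CPM to 15.6, 19.5, 21.2 and 74 CPM. The non-targeting guide 2 library of experiment 2 was over 3 times as high as its 3 fellows in LOX and LOXL2, which themselves lay above every library of experiment 1. PNCK, a calmodulin-dependent kinase, H19, an imprinted noncoding RNA, SULF2, a heparan sulfatase, LINGO1, NSG1 and EPS8L3 rose with log2 ratios of 4.23, 3.74, 3.71, 3.52, 3.49 and 3.44.

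Among the falls, CCL2, a chemokine for monocytes, went from 8.06, 5.79, 11.7 and 10.3 CPM to 0.361, 0.352, 0.157 and 0.357 CPM, a log2 ratio of −4.91 (SE 0.27, edgeR adjusted p 1.36e-07). SLC37A2, a sugar phosphate exchanger, went from 21.2, 19.9, 19.2 and 19.6 CPM to 0.699, 1.52, 0.584 and 0.962 CPM, a log2 ratio of −4.45 (SE 0.21). HEY1, a Notch target repressor, went from 12.4, 13.4, 12.2 and 11.7 CPM to 1.17, 1.48, 0.827 and 1.54 CPM. SLC37A2 and HEY1 were at a similar level in the 4 libraries of experiment 1, and all 3 genes were low in all 4 of experiment 2. DHRS2, EGR3, TNFRSF9, XIRP1 and KRT79 fell with log2 ratios of −3.94, −3.78, −3.34, −3.21 and −3.10. In DHRS2, EGR3, TNFRSF9, XIRP1 and KRT79 the knockout guide 2 library was the lowest of experiment 1.

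By absolute difference in mean CPM, the largest rises past the test included those of ENO1 and GLUL, the enzymes enolase and glutamine synthetase, of HLA-B, a class I heavy chain, and of DDOST, a subunit of oligosaccharyltransferase. GLUL was at 1182, 1038, 1125 and 1126 CPM in experiment 1 and 2409, 2421, 2598 and 3666 CPM in experiment 2, a log2 ratio of 1.30 (SE 0.11). The largest falls were in ACTB, ACTG1, HSPA8, FLNA and TIMP3, and they recur in the groups described next.

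**Figure D2:**
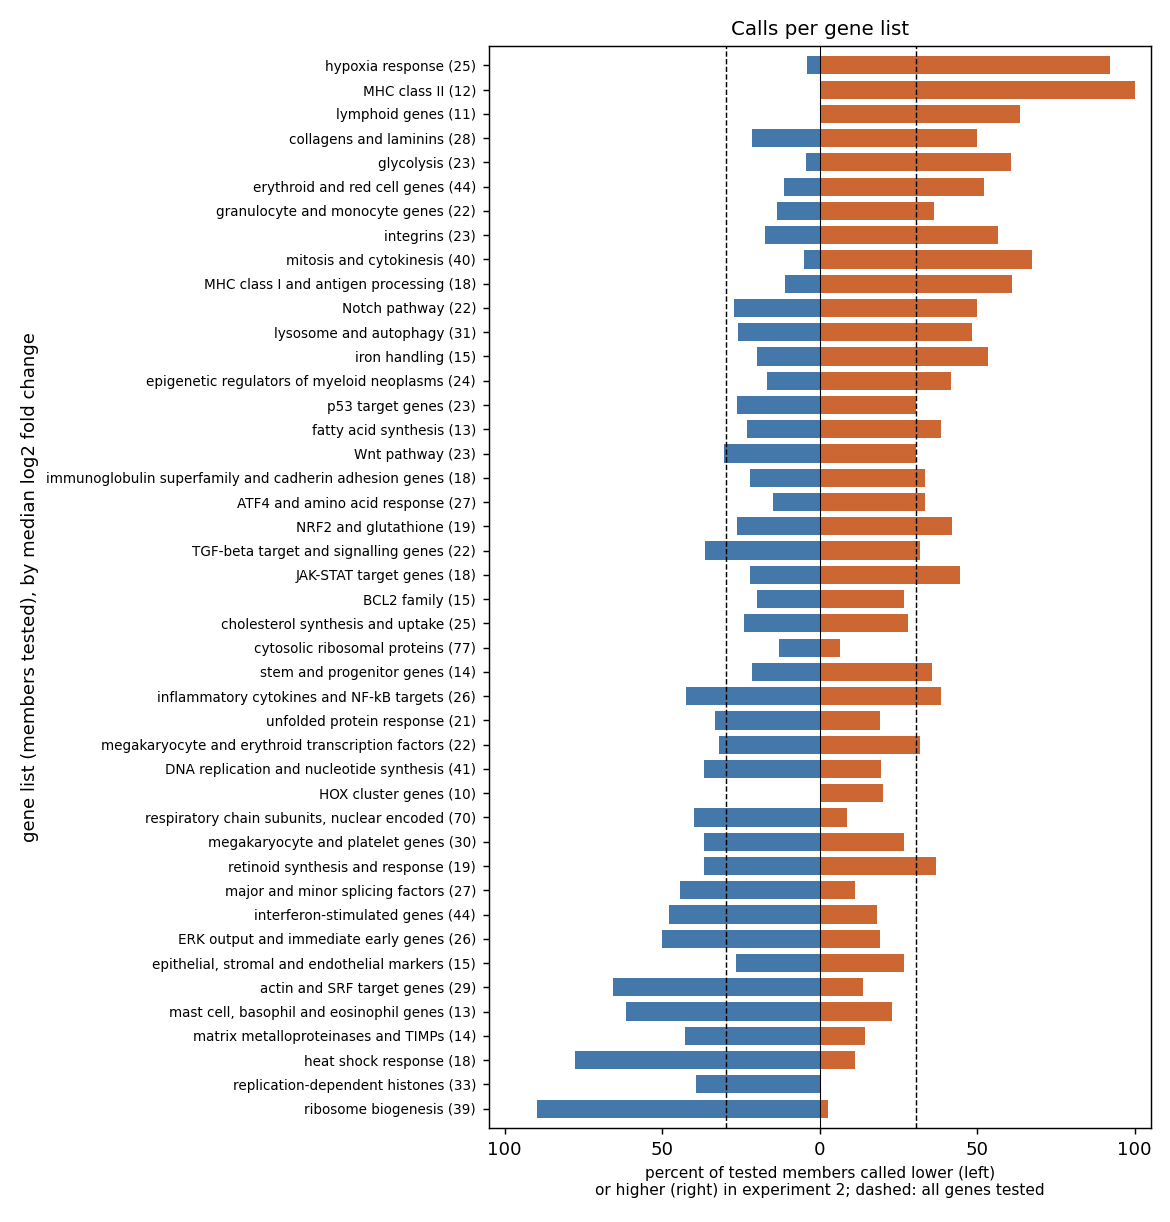
For each list with at least 10 tested members, the percent of tested members called lower (left bars) or higher (right bars) in experiment 2, with dashed lines at the 29.8% and 30.5% of all genes. The hypoxia and MHC class II lists reach furthest to the right and the ribosome biogenesis list furthest to the left.

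Hypoxia genes were higher in experiment 2. Of 25 tested members, 23 rose (92%, against 30.5% of all genes), 17 of them at least 2-fold (against 8.75% of all genes). The list's median log2 fold change was 1.40. The list's mean log2 CPM, relative to its experiment 1 mean, was −0.12, −0.16, 0.25 and 0.03 in experiment 1 and 1.14, 1.32, 1.32 and 2.26 in experiment 2. The non-targeting guide 2 library of experiment 2 thus stood about 1 log2 unit above its fellows, and the lowest experiment 2 library stood above the highest of experiment 1. Leaving that library out gave 22 members higher and a median of 1.17. ANGPTL4, a secreted inhibitor of lipoprotein lipase, was at 2.67, 2.12, 4.72 and 3.84 CPM and then 16.3, 25.5, 23.9 and 60.1 CPM, a log2 ratio of 3.21 (SE 0.27, edgeR adjusted p 1.5e-06). P4HA1, a collagen prolyl hydroxylase, was at 47.5, 37.6, 77.3 and 60.1 CPM and then 174, 166, 171 and 418 CPM. CA9, a membrane carbonic anhydrase, was at 0.112, 0.148, 0.259 and 0.183 CPM and then 0.924, 0.984, 1.14 and 2.75 CPM, so that it stayed low in absolute terms while it rose in all 4. BNIP3, a mitophagy receptor, and ANKRD37, both shown above with their promoter letters, had log2 ratios of 1.88 and 1.69. VEGFA, the vascular growth factor, rose by 0.79 and SLC2A1, a glucose transporter, by 0.91 on the log2 scale.

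The transcripts of the factors themselves did not move together. EPAS1, which encodes HIF-2 alpha, rose from 64.5, 85.9, 60.4 and 60.8 CPM to 134, 116, 159 and 138 CPM, with a log2 ratio of 1.01 (SE 0.12). HIF1A, which encodes HIF-1 alpha and is controlled mainly at the protein level, was at 130.3, 138, 131 and 133 CPM and then 119, 104, 104 and 126 CPM, a log2 ratio of −0.24 (SE 0.08, edgeR adjusted p 0.0182). Its call was lost without the knockout guide 2 library of experiment 1 (adjusted p 0.0599), the non-targeting guide 2 library of experiment 1 (0.0511) or the knockout guide 2 library of experiment 2 (0.0601). HK2, a hexokinase, did not pass, at 0.09 (SE 0.14).

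Glycolysis genes overlap this list and moved less. Of 23 tested, 14 rose (60.9%, against 30.5% of all genes) and 1, LDHB, fell, with a list median of 0.42. ENO1 was at 2152, 2081, 2298 and 2183 CPM in experiment 1 and 3505, 3438, 3887 and 5081 CPM in experiment 2, a log2 ratio of 0.86 (SE 0.09). PFKFB4, which sets the level of an activator of phosphofructokinase, had a log2 ratio of 2.12, ALDOC, an aldolase, 1.58, and GAPDH 0.44. In GAPDH the groups overlapped, with the non-targeting guide 2 library of experiment 2 at 5874 CPM and the other 7 libraries between 2571 and 3642 CPM. LDHB, the heart-type lactate dehydrogenase chain, fell by 0.23 (SE 0.07), and not without the non-targeting guide 2 library of experiment 1 (edgeR adjusted p 0.0564).

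Genes of ribosome biogenesis were lower in experiment 2. Of 39 tested, 35 fell (89.7%, against 29.8% of all genes), 13 at least 2-fold (against 5.46% of all genes). Another 1 rose, and the median log2 fold change was −0.76. RRP9, a protein of the U3 small nucleolar ribonucleoprotein, was at 52.4, 42.5, 50.2 and 57.1 CPM in experiment 1 and 13.7, 16.4, 13.4 and 12 CPM in experiment 2, a log2 ratio of −1.87 (SE 0.12, edgeR adjusted p 2.37e-07). NOP56, a core box C/D snoRNP protein, was at 349, 328, 341 and 341 CPM and then 142, 160.5, 147 and 112 CPM. NOP2, a methyltransferase of large subunit rRNA, was at 193, 162, 177 and 186 CPM and then 80, 83.2, 89.1 and 58.5 CPM. None of these 3 genes overlapped between the experiments, which held for 56.0% of all tested genes. PPAN fell by 1.37 on the log2 scale, and the abundant nucleolar proteins NCL and NPM1 had log2 ratios of −0.65 and −0.51. LYAR, a nucleolar zinc finger protein, was the member that rose, by 0.63 (SE 0.12), and FBL, the box C/D methyltransferase, did not pass at −0.11 (SE 0.06). The proteins of the finished ribosome had other counts: of 77 tested, 5 rose, 10 fell and 62 were not called, with a median of −0.01. Their share of all counts was 4.44 ± 0.104% in experiment 1 and 4.51 ± 0.156% in experiment 2 (SD, n = 4; exact two-sided permutation p 0.571, adjusted over 5 classes 0.571).

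Chaperone genes of the heat shock list were lower too. Of 18 tested, 14 fell (77.8%, against 29.8% of all genes), 4 at least 2-fold (against 5.46% of all genes), and 2 rose, with a median of −0.66. HSPA8, the constitutive HSP70 chaperone, was at 2994, 2833, 2979.5 and 2907 CPM in experiment 1 and 1184, 1082, 989 and 795 CPM in experiment 2, a log2 ratio of −1.54 (SE 0.09, edgeR adjusted p 1.82e-07). HSPH1 and DNAJA1, cochaperones of HSP70, had log2 ratios of −1.40 and −1.15, and HSP90AB1, an HSP90 chaperone, −0.47. Of the 2 members that rose, DNAJB4, a J-domain cochaperone, had the larger change, 1.17.

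**Figure D3:**
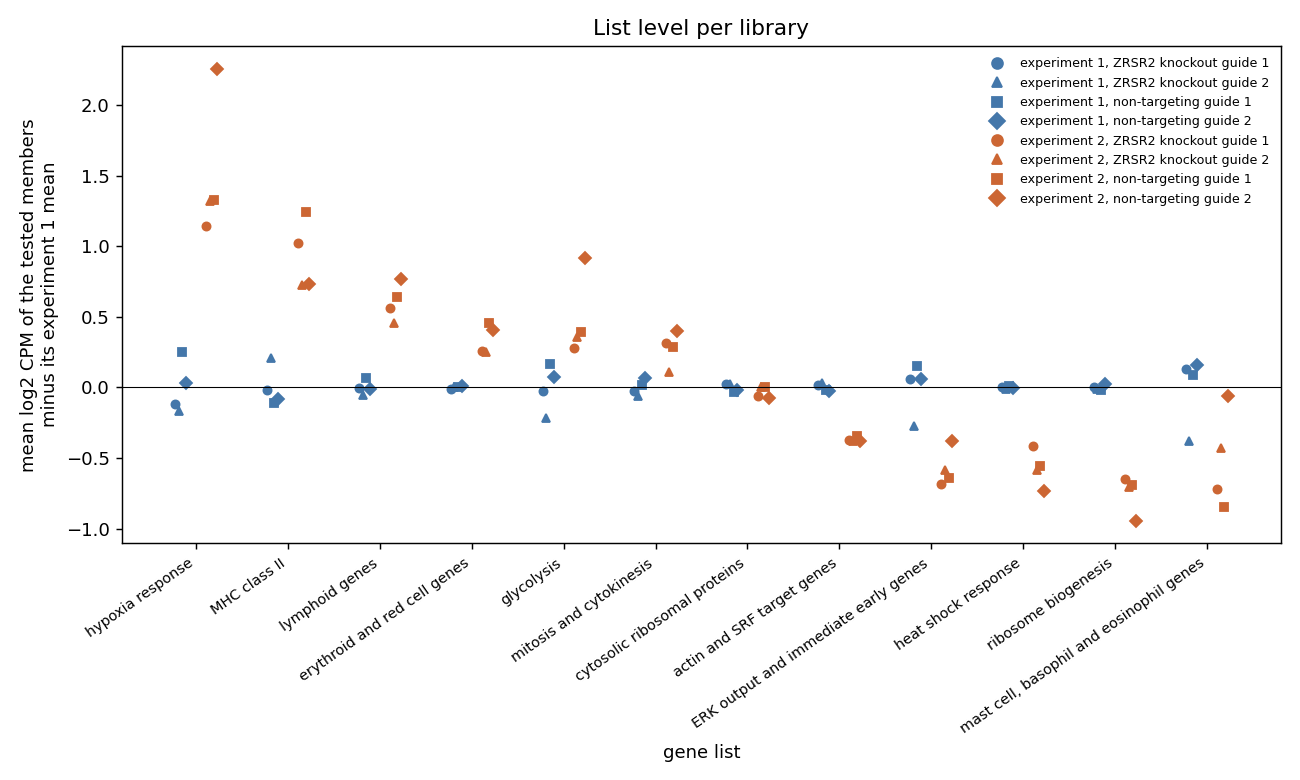
Mean log2 CPM over the tested members of 12 lists in each library, minus the mean of experiment 1, colour for experiment and shape for guide. The ribosome biogenesis, heat shock and actin lists lie below 0 in all 4 libraries of experiment 2, and the hypoxia list lies highest in the non-targeting guide 2 library, at 2.26.

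Actin and SRF target genes fell in 19 of 29 tested members (65.5%, against 29.8% of all genes) and rose in 4, with a median of −0.35. The list's level in the 4 libraries of experiment 2 was −0.37, −0.38, −0.35 and −0.38. The mean over members was thus alike in all guides, while single members such as ACTB differed between them. ACTG1, cytoplasmic gamma-actin, was at 3343, 2663, 3243 and 3371 CPM in experiment 1 and 1062, 1353, 1037 and 1196 CPM in experiment 2, a log2 ratio of −1.44 (SE 0.10, edgeR adjusted p 5.05e-07). ACTB, beta-actin, was at 11277, 9039, 10314 and 10876 CPM and then 6733, 7935, 7403 and 6844 CPM, a smaller change of −0.52. SRF itself was at 202, 183, 204 and 211 CPM and then 87.4, 105, 97.8 and 94 CPM, a log2 ratio of −1.06 (SE 0.07). The transcript of the factor was thus lower too, and its activity was not measured. ZYX, a focal adhesion protein, MYH9, non-muscle myosin, and FLNA, filamin A, had log2 ratios of −1.13, −0.82 and −0.79. CNN3, an acidic calponin, and TAGLN2 rose, by 1.79 and 0.22, the second with an edgeR adjusted p of 0.0119 that was 0.0689 or 0.0539 without non-targeting guide 1 or 2 of experiment 1.

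The list of ERK output and immediate early genes was split. Of 26 tested, 13 fell (50%, against 29.8% of all genes), 10 of them at least 2-fold (against 5.46% of all genes). Another 5 rose (19.2%, against 30.5%) and 8 were not called. EGR3, a zinc finger factor, was at 5.64, 3.56, 7.35 and 6.1 CPM in experiment 1 and 0.135, 0.375, 0.242 and 1.07 CPM in experiment 2. DUSP5, a nuclear ERK phosphatase, was at 20, 20.9, 22.8 and 20 CPM and then 6.2, 7.17, 6.46 and 7.5 CPM, a log2 ratio of −1.62 (SE 0.10). SPRY4, DUSP6 and FOSL1, further ERK feedback genes or AP-1 factors, had log2 ratios of −1.84, −0.66 and −1.05. In the other direction EGR1 was at 105, 53.2, 119 and 85.9 CPM and then 133, 143, 153 and 251 CPM, a log2 ratio of 0.89 (SE 0.20), JUNB rose by 0.60 and FOS by 0.72. The 2 related factors EGR1 and EGR3 thus moved apart, and the knockout guide 2 library of experiment 1 was the lowest of its experiment in both. The call of FOS (edgeR adjusted p 0.0158) was lost without the non-targeting guide 2 library of either experiment or knockout guide 1 of experiment 2, with adjusted p-values of 0.0506 to 0.0661.

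MHC class II genes were higher, with 12 of 12 tested members called (against 30.5% of all genes) and a median of 1.08. A 2-fold change was reached by 7 (against 8.75% of all genes). HLA-DRA, the alpha chain of HLA-DR, was at 521, 629.7, 493 and 493 CPM in experiment 1 and 1285, 958, 1373 and 1011 CPM in experiment 2, a log2 ratio of 1.12 (SE 0.12, edgeR adjusted p 9.21e-06). HLA-DMB, which edits the peptides of class II, rose by 1.45. CD74, the invariant chain, which lies on another chromosome, rose less, from 688, 689, 659.8 and 658 CPM to 939, 983, 1198 and 886 CPM, a log2 ratio of 0.57 (SE 0.09). CIITA, the class II transactivator, was at 86.3, 80.8, 83.7 and 85.5 CPM and then 93.8, 106, 106 and 83.8 CPM, groups that overlap, with a log2 ratio of 0.21 and an edgeR adjusted p of 0.0412, which lay between 0.0575 and 0.116 when any library other than knockout guide 1 or non-targeting guide 2 of experiment 2 was left out, with guides as blocks or with a mean per genotype and experiment. Members of the class rose by different amounts. The 10 HLA members, which lie in a shifted stretch of chromosome 6, had log2 ratios of 0.48 to 1.45. Of 18 class I and antigen processing genes, 11 rose (61.1%, against 30.5% of all genes) and 2 fell, none 2-fold. HLA-B had a log2 ratio of 0.44, HLA-E of 0.79 and B2M, the shared light chain, of 0.25.

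Neighbouring genes moved together in several stretches of the genome. Tested genes with a mean of at least 5 CPM were placed on GRCh38 by symbol in GENCODE 29 and cut, in order, into 263 blocks of about 40 genes. The quartiles of the block medians of the log2 fold change were −0.11 and 0.07, 15 blocks were at or below −0.25 and 12 at or above 0.25. These were clustered, with 9 of the 27 on chromosome 1. The first block there, from 14404 to 5992473, had a median of −0.74 with 29 of 40 genes called lower and 5 higher. From 11654375 to 16972979, the median was 0.66, and from 16974502 to 23531220 it was 0.67, with 34 and 30 of 40 genes called higher. From 23557918 to 26900466 it was −0.40, from 26900238 to 31944856 it was −0.42, and from 40691648 to 44815585 it was 0.46. The sign thus changed several times along the chromosome, and no block of chromosome 1 beyond 64833232 reached 0.25 in either direction.

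**Figure D4:**
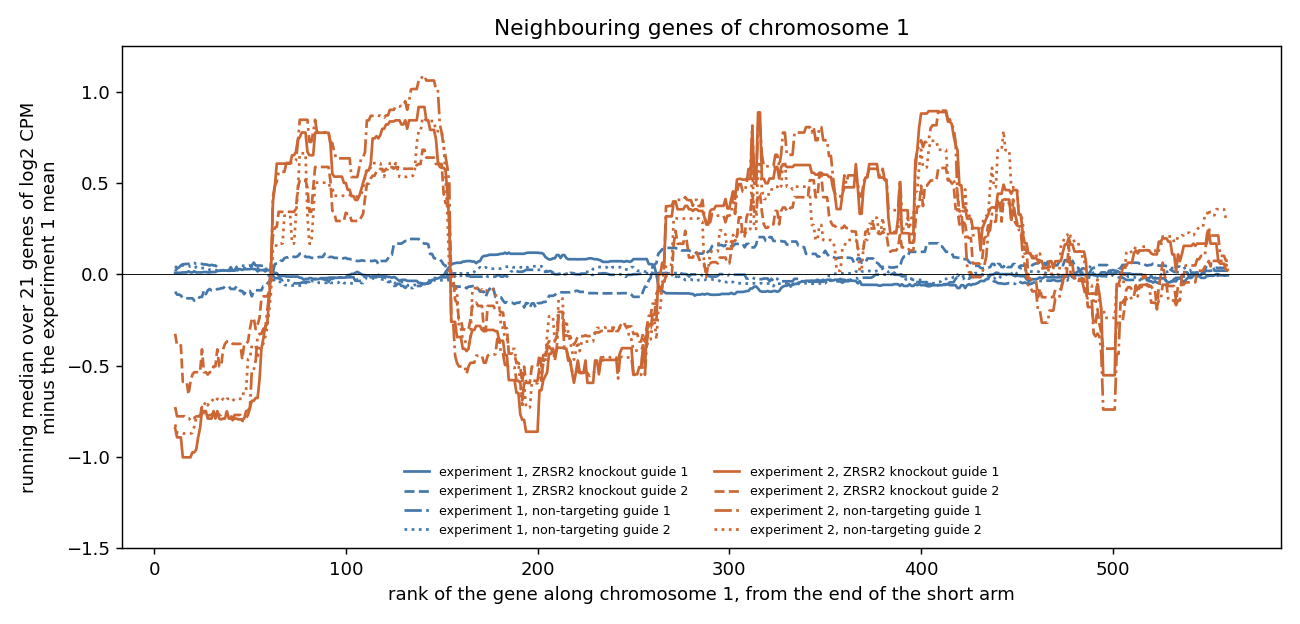
Running median over 21 neighbouring genes of log2 CPM minus the experiment 1 mean, by rank of the gene from the end of the short arm of chromosome 1 up to rank 560, a line per library with colour for experiment and line style for guide. All 4 libraries of experiment 2 lie low, high, low and high in turn, with steps at nearly the same ranks, and the knockout guide 2 and guide 1 libraries of experiment 1 depart slightly from 0 in opposite directions.

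Each library of experiment 2 showed these steps. In the first block of chromosome 1 the library medians, relative to experiment 1, were −0.81, −0.46, −0.77 and −0.71, and in the block from 16974502 they were 0.73, 0.58, 0.85 and 0.54. The knockout guide 2 library was the nearest to 0 of the 4 in the first, and in experiment 1 the knockout guide 2 library lay at −0.08 and 0.10 in these blocks, where the other 3 lay between −0.04 and 0.03. In the block from 23557918, knockout guide 1 of experiment 1 lay at 0.11 and guide 2 at −0.12. The values are relative to the mean of experiment 1, so that a departure of one library there shifts the others the opposite way. On chromosome 3 from 51993522 to 61251459 the median was −0.60, with 35 of 40 genes called lower and 1 higher. On chromosome 6 it was −0.46 from 291630 to 13328583 and 0.59 from 32153441 to 33457541, the latter holding the class II genes. On chromosome 4 it was 0.33 from 53285 to 4542346, on chromosome 13 0.35 from 76880166 to 106568164, and on chromosome 21 −0.36 from 34513142 to 44327376. DNA was not measured, and what these stretches share beyond position was not tested.

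Several genes named here lie in shifted blocks, and their own values are part of those blocks. DDOST was at 976, 1156, 921 and 936 CPM in experiment 1 and 2276, 1884, 2588 and 2059 CPM in experiment 2 and lies on chromosome 1 at 20651767. CSF3R, SLC2A1 and KIF2C lie in blocks of chromosome 1 with medians of 0.33 to 0.46, LYAR and NSG1 in a block of chromosome 4 at 0.33, and RUNX1 in the block of chromosome 21 at −0.36. RRP9 lies in a block of chromosome 3 at −0.26, and HLA-DRA and HLA-DMB in the block of chromosome 6 at 0.59. BUB1 and IL1R1 lie in a block of chromosome 2 at −0.29 and rose. PDE9A and MX2 lie in that same block of chromosome 21 and rose. Outside shifted blocks, where genes without a position were also counted, 59.1% of genes were called and inside 72.7%. The blocks were picked by the fold changes of their own genes, so a higher share inside was set in advance. Without members in shifted blocks the hypoxia list kept 22 of 24 higher, the ribosome biogenesis list 30 of 31 lower, the heat shock list 14 of 18 lower and the actin list 17 of 27 lower. The class II list was left with 2 members, both higher with a median of 0.39, and the histone list with 13 members, 4 of them lower.

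Lineage genes shifted in several directions, and in bulk RNA fewer cells of a type and less RNA per cell cannot be told apart. Of 44 erythroid genes tested, 23 rose (52.3%, against 30.5% of all genes) and 5 fell (11.4%, against 29.8%), with a median of 0.32. HBB, adult beta-globin, was at 14.4, 10, 14.6 and 13.4 CPM in experiment 1 and 24, 39.8, 30 and 44.9 CPM in experiment 2, a log2 ratio of 1.40 (SE 0.17, edgeR adjusted p 2.71e-05). ALAS2, the first enzyme of erythroid heme synthesis, was at 19.3, 17.2, 23.3 and 18.5 CPM and then 32.6, 31.3, 37.9 and 35 CPM, a log2 ratio of 0.81. Both were higher in all 4 libraries of experiment 2 than in any of experiment 1. HBE1, embryonic epsilon-globin, had a log2 ratio of 1.33. HBG2, fetal gamma-globin, rose by 0.34, whereas HBA1, an alpha-globin, and TFRC, the transferrin receptor, fell with log2 ratios of −0.35 and −0.44. The call of HBA1 was lost without the knockout guide 1 library of experiment 1 (edgeR adjusted p 0.0574) or experiment 2 (0.0513), and that of TFRC in DESeq2 (0.0765) and without either knockout library of experiment 1 or knockout guide 1 of experiment 2 (0.0561 to 0.107). Globins held 0.111 ± 0.00567% of counts in experiment 1 and 0.139 ± 0.0271% in experiment 2 (SD, n = 4; exact two-sided permutation p 0.0286, the smallest that 70 splits give, adjusted over 5 classes 0.0714). Without the non-targeting guide 1 library of experiment 2, which held 0.18%, the difference of the means fell from 0.0285 to 0.015 percentage points.

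Megakaryocyte and platelet genes were called in shares near those of all genes. Of 30 tested, 8 rose (26.7%, against 30.5%) and 11 fell (36.7%, against 29.8%), with a median of −0.12. THBS1, thrombospondin, was at 238, 253, 209 and 197 CPM and then 53.4, 73.8, 52.7 and 61 CPM, a log2 ratio of −1.89 (SE 0.10). GP6, the platelet collagen receptor, was at 68.9, 70.8, 63.5 and 67.9 CPM and then 16.5, 23, 15.8 and 19 CPM, a log2 ratio of −1.87 (SE 0.11). TUBB1, platelet beta-tubulin, was at 26.3, 31.9, 25.4 and 25.2 CPM and then 62.6, 61.4, 64.9 and 75.5 CPM, a log2 ratio of 1.28 (SE 0.10). THBS1 and GP6 were thus lower and TUBB1 higher, each without overlap, as were 56.0% of all tested genes. ITGA2B had a log2 ratio of 0.19 (edgeR adjusted p 0.0346) that did not pass without knockout guide 2 or either non-targeting guide of experiment 1, or guide 2 of either genotype in experiment 2 (0.0811 to 0.133), or with guide as replicate block (0.0613). VWF did not pass, at 0.09 (SE 0.31). Of 22 megakaryocyte and erythroid transcription factors, 7 rose and 7 fell (31.8% each), none 2-fold, with RUNX1 at −0.62. GATA1 at 0.17 had an edgeR adjusted p of 0.0499 and did not pass under most alternatives, and GATA2 at −0.22 had one of 0.0553. GATA2 passed without the filter on low counts (0.01), with experiment as the sole term (0.0498), and without knockout guide 2 of experiment 1 (0.00536) or experiment 2 (0.0195).

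Markers of other blood lineages were mixed, against 30.5% of all genes called higher and 29.8% called lower. Of 13 tested mast cell, basophil and eosinophil genes, 8 fell (61.5%) and 3 rose (23.1%), with a median of −0.43. PRG2, eosinophil major basic protein, was at 358, 165, 371 and 370.4 CPM and then 51.4, 103, 62.6 and 115 CPM, a log2 ratio of −1.91 (SE 0.26), and HPGDS, a prostaglandin D synthase, had −2.21. CLC, an eosinophil galectin, was at 0.477, 0.36, 0.324 and 0.518 CPM and then 0.0451, 0.0937, 0.0143 and 0.137 CPM. HDC, which makes histamine, rose by 0.69 and IL5RA, the interleukin-5 receptor, by 1.82. Genes of one lineage list thus moved in both directions, and the summed level of its 17 members ran from 2054 to 2644 CPM in experiment 1 and from 2263 to 2841 CPM in experiment 2. Of 22 lymphoid genes, 11 passed the filter on low counts, and 7 of these rose (63.6%) and 0 fell, with a median of 0.59. CD79A, a B cell receptor chain, was at 10.3, 11.2, 11.4 and 11.5 CPM and then 33.9, 32.4, 38.6 and 51.1 CPM, and CD7 rose by 1.10. The defining T and B cell markers CD3D, CD3E, CD3G and MS4A1 were among the 11 untested genes, none of which passed 0.352 CPM in any library, and the summed level of the list ran from 414 to 457 CPM and then from 659.6 to 851 CPM. Of 22 tested granulocyte and monocyte genes, 8 rose (36.4%) and 3 fell (13.6%). CSF3R, the G-CSF receptor, had a log2 ratio of 1.92, PRTN3 of 2.16 and CTSG of −2.36, the last 2 below 1.1 CPM throughout. MPO and ELANE were not tested, and the list's sum ran from 1398 to 1433 CPM and then from 1538 to 1776 CPM. Of 15 epithelial, stromal and endothelial markers, 4 rose and 4 fell (26.7% each). The list's sum ran from 237 to 255 CPM in experiment 1 and from 206 to 260.5 CPM in experiment 2. The part of other cells in the gene results was not tested.

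Matrix genes changed by large amounts in both directions, where 30.5% of all genes were called higher and 29.8% lower. Of 14 metalloproteinase and TIMP genes tested, 6 fell (42.9%) and 2 rose (14.3%). MMP14, a membrane-bound activator of other metalloproteinases, was at 451, 339, 391 and 389.6 CPM and then 109, 154, 101 and 138 CPM, a log2 ratio of −1.65 (SE 0.13). TIMP3, an inhibitor bound to matrix, was at 1537, 1346, 1489 and 1400.1 CPM and then 479, 592, 442 and 792 CPM, a log2 ratio of −1.33 (SE 0.15). Protease and inhibitor were thus both lower. MMP10 was at 0.73, 0.593, 0.938 and 0.823 CPM in experiment 1 and 0, 0.0234, 0.0285 and 0.0275 CPM in experiment 2, where its libraries held 3 counts or fewer. Of 28 collagens and laminins, 14 rose (50%), 10 at least 2-fold (against 8.75% of all genes), and 6 fell (21.4%). COL6A2 and COL6A1, which encode chains of collagen VI and lie close together on chromosome 21, had log2 ratios of 2.65 and 2.19. COL3A1 was at −3.30. Of 23 integrins, 13 rose (56.5%) and 4 fell (17.4%), with ITGB2, the leukocyte integrin beta chain, at 1.87 and ITGA11, a collagen receptor chain, at 2.52. Of 19 retinoid genes, 7 rose and 7 fell (36.8% each). RDH10, which makes retinal, fell with ALDH1A2, from 99.7, 88.7, 97.2 and 103 CPM to 22.6, 21, 22.5 and 18.5 CPM. CRABP1 and STRA6, which bind and take up retinoids, rose by 2.03 and 2.19. CYP26A1, which degrades retinoic acid, was at 0.0842, 0.0848, 0.227 and 0.061 CPM and then 0.496, 0.422, 0.371 and 1.13 CPM.

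Of 40 genes of mitosis and cytokinesis, 27 rose (67.5%, against 30.5% of all genes) and 2 fell, but only BUB1, a spindle checkpoint kinase, at 1.12, and KIF2C, a microtubule depolymerase, at 1.01, reached 2-fold. CCNB1, cyclin B1, fell by 0.26, a call lost without knockout guide 1 or non-targeting guide 2 of experiment 1 or knockout guide 2 of experiment 2 (edgeR adjusted p 0.0519 to 0.0674). Of 41 genes of DNA replication and nucleotide synthesis, 8 rose (19.5%) and 15 fell (36.6%, against 29.8% of all genes). Replication-dependent histone transcripts, which mostly lack a poly(A) tail, fell in 13 of 33 (39.4%, against 29.8% of all genes) and rose in 0. Of the 13, 7 fell at least 2-fold (against 5.46% of all genes). Their share of counts was 0.0123 ± 0.000751% and then 0.00746 ± 0.00243% (SD, n = 4; exact two-sided permutation p 0.0286, adjusted 0.0714). HIST1H2BK was at 33.7, 31, 30.3 and 32.6 CPM and then 12.4, 18.1, 11.5 and 16.3 CPM. Of 44 interferon-stimulated genes, 21 fell (47.7%, against 29.8% of all genes) and 8 rose (18.2%, against 30.5%). GBP1, a guanylate-binding GTPase, had a log2 ratio of −1.33, IFI44L of −1.81 and MX2, an antiviral GTPase, of 0.92. Of 26 inflammatory and NF-kB genes, 10 rose (38.5%) and 11 fell (42.3%), 1 and 6 of them at least 2-fold (against 8.75% and 5.46% of all genes). The median over the list was −0.03 and the mean −0.41. Its level was 0.09, −0.17, 0.09 and −0.01 in experiment 1 and −0.39, −0.36, −0.47 and −0.41 in experiment 2. These levels did not overlap, which also held for lists with mixed counts. The p53 target list, for example, was at most at 0.035 in experiment 1 and at least at 0.074 in experiment 2. CXCL8 was at −2.45, IL1A at 2.48, and LIF, a cytokine of the interleukin-6 family, went from 357, 129, 357 and 312 CPM to 96.3, 99, 108 and 106 CPM.

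For the remaining lists the shares of all genes, 30.5% higher and 29.8% lower, are again the background. Of 70 nuclear-encoded respiratory chain genes, 28 were called lower (40%) and 6 higher (8.57%), none 2-fold, and of 27 splicing factors 12 lower (44.4%) and 3 higher (11.1%). Of 9 metallothionein and zinc genes, 6 fell and 0 rose. Of 24 epigenetic regulators of myeloid neoplasms, 10 rose and 4 fell, and of 31 lysosome and autophagy genes, 15 rose and 8 fell. The other lists gave mixed counts. Higher and lower members numbered 5 and 3 of 14 stem and progenitor genes, 7 and 6 of 25 cholesterol genes, 5 and 3 of 13 fatty acid synthesis genes, and 4 and 7 of 21 unfolded protein response genes. They numbered 9 and 4 of 27 ATF4 and amino acid genes, 8 and 4 of 18 JAK-STAT targets, 7 and 8 of 22 TGF-beta genes, 7 and 6 of 23 p53 targets, and 4 and 3 of 15 BCL2 family genes. For 18 adhesion genes they were 6 and 4, for 19 NRF2 and glutathione genes 8 and 5, for 15 iron handling genes 8 and 3, for 22 Notch genes 11 and 6, for 23 Wnt genes 7 and 7, and for 10 HOX genes 2 and 0.

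The difference between experiments was present in each genotype. Within knockout libraries 5498 genes were called (36.9%), and within non-targeting libraries 6982 (46.9%), with 2 libraries per experiment in each. Of all tested genes, 89.6% had the same sign in both, as had all 5070 genes called in both. The counts rest on few libraries: leaving out knockout guide 1 of experiment 1 or 2 gave 2787 or 3229 calls within the knockout, and leaving out non-targeting guide 1 or 2 of experiment 1 gave 4364 or 4094 within non-targeting libraries, so the counts are not compared. Across the tested genes the log2 fold changes of the genotypes had a Pearson correlation of 0.924 (Spearman 0.922), where genes are not independent replicates. The 2 genotypes share no library in these contrasts. Of the 2117 genes with a 2-fold call, 1624 had the smaller change in the knockout. Their median absolute log2 fold change was 1.33 in knockout and 1.57 in non-targeting libraries. On the axis with 77% of the variance, knockout guide 2 moved least between experiments, from −38.1 to 32.8. Knockout guide 1 moved from −50.2 to 48.5, and the non-targeting guides from −46.4 to 52.0 and from −48.7 to 50.1. Whether the smaller change belongs to the genotype or to guide 2 alone was not tested.

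**Figure D5:**
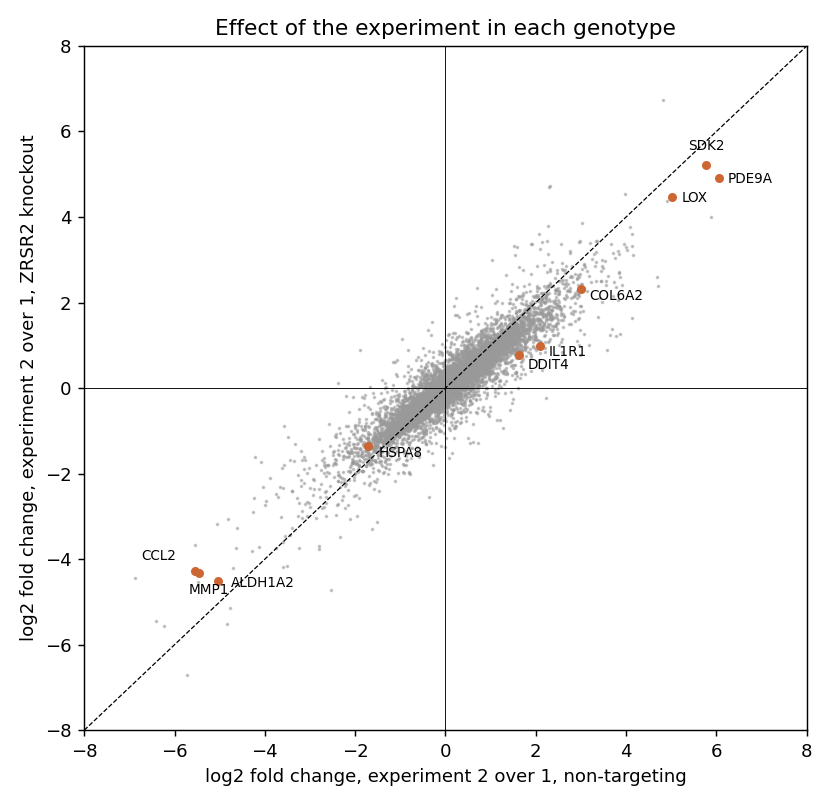
Log2 fold change of experiment 2 over experiment 1 in ZRSR2 knockout libraries against that in non-targeting libraries, a point per tested gene, with the line of equality dashed and 10 genes named. Points follow the line with a tilt towards smaller changes in the knockout, and the marker genes lie at its ends. The test of the difference between genotypes, with 2 libraries per genotype and experiment, called 0 of 14898 genes.

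The test of the difference between genotypes called 0 of 14898 genes (0.0%), with edgeR and with DESeq2. In edgeR 248 had an unadjusted p under 0.05 (1.66%), fewer than the share of 0.05 that chance alone would give. With 2 libraries per genotype and experiment, 0 calls does not show that the genotypes changed alike. The 5 of smallest p were IL1R1, DUOX2, KCNH4, DDIT4 and COL6A2, and none passed adjustment. IL1R1, an interleukin-1 receptor, was at 14.5, 21, 9.16 and 9.82 CPM in experiment 1 and 38.9, 31.9, 42.2 and 38.5 CPM in experiment 2, with log2 ratios of 0.99 in knockout and 2.09 in non-targeting libraries (difference −1.10, unadjusted edgeR p 0.00108). DUOX2, an NADPH oxidase, had −0.31 and 0.54, and KCNH4, a potassium channel, −0.19 and −2.19. DDIT4, an inhibitor of mTORC1, had 0.78 and 1.63, and COL6A2 2.32 and 2.99. For SDK2 the effects were 5.22 and 5.78, for MMP1 −4.32 and −5.45, and for ALDH1A2 −4.52 and −5.03.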

How the data were processed

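RNA from 8 SET-2 libraries was sequenced, and the authors deposited 1 table of RSEM expected counts for 25435 gene symbols, per the submitters' processing notes, which name cutadapt 1.11, RSEM 1.2.30 and hg19. For the aligner, annotation and strand setting, nothing is given in the sources used here. The values were whole, so rounding changed 0 of them, and no 2 libraries were duplicates.

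Genes were filtered with filterByExpr by experiment (14898 kept), scaled with TMM and tested with edgeR 4.0.16 (quasi-likelihood F test, genotype and experiment as terms, Benjamini-Hochberg over all genes, threshold 0.05). Called means past this threshold. A fit of the 4 cells of genotype and experiment gave the effects within genotypes and their difference. Count classes were compared by exact two-sided permutation. DESeq2 1.42.0 (R 4.3.3) served alternatives, and Python 3.11.15 with matplotlib 3.10.9 the rest. A test on simulated data for the comparison of experiments changed 200 of 14898 genes. Of genes changed 1.5-fold 66% were recovered, and of those changed 2-fold 82%, with 10 false calls. In the data 60.3% of genes were called, so these rates may not carry over.

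Named genes were the 3 markers, the 10 largest log2 fold changes each way with at least 5 CPM and no overlap, the 5 largest differences in CPM each way, the largest and most abundant members of each list, and the 5 smallest p-values for the difference between genotypes, from which those described were taken. Members and lists were chosen with earlier results of these data known. XIST and Y-linked genes were left out, and some genes that the rule names are not reported here.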

Additional observations from a re-analysis of the deposited data

Results flagged for a closer look

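In 25 of 346 groups of 4 libraries, 1 library lay apart from its fellows by more of the group's range than Dixon's critical value for 4 samples allows, where chance flags about 1 in 20 groups. Of these, 11 were in the non-targeting guide 2 library of experiment 2. That library was high in the hypoxia list (score 2.26, others 1.14 to 1.32), LOX (23.3 CPM, others 6.68 to 6.86), LOXL2 (74 CPM, others 15.6 to 21.2), CA9 (2.75 CPM), P4HA1 (418 CPM) and PFKFB4 (251 CPM). It was also high in HK2 (235 CPM), GLUL (3666 CPM), EGR1 (251 CPM), PRTN3 (1.02 CPM) and CYP26A1 (1.13 CPM).

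The knockout guide 2 library of experiment 1 stood apart in 6 groups. It was low in PRG2 (165 CPM, others 358 to 371), the mast cell, basophil and eosinophil list (score −0.379, others 0.0891 to 0.157) and ZYX (329.8 CPM). It was high in EPAS1 (85.9 CPM), CNN3 (26.1 CPM) and HLA-DMB (19.1 CPM).

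In experiment 2, knockout guide 2 stood apart in LYAR (139 CPM) and IFI44L (5.34 CPM), and non-targeting guide 1 in CCL2 (0.157 CPM) and globins (0.18% of counts). In experiment 1, knockout guide 1 stood apart in PDE9A (0.253 CPM), non-targeting guide 1 in LOXL2 (3.79 CPM) and CYP26A1 (0.227 CPM), and non-targeting guide 2 in the BCL2 family list (score −0.0634).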

How the results depend on the processing

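Against a 1.5-fold change in place of none, 2546 genes were called over both genotypes, and the other settings that kept all 8 libraries gave 8395 to 9491. Leaving out 1 library gave 7860 to 9124 calls, and 2074 to 2382 of at least 2-fold. Within the knockout it gave 2787 (without knockout guide 1 of experiment 1) to 6946, with 3229 without knockout guide 1 of experiment 2. Within non-targeting libraries it gave 4094 (without guide 2 of experiment 1) to 7233, with 4364 without guide 1 of experiment 1. A lone library in such a fit is assumed to vary like the other groups. The difference between genotypes had 5 calls with no count filter and 0 otherwise. Leaving out 1 library moved the difference of the shares of counts to 0.015 to 0.0339 percentage points for globins, −0.0056 to −0.0041 for histones, 0.008 to 0.129 for ribosomal proteins, 0.101 to 0.268 for the 10 and 0.372 to 0.683 for the 100 most abundant genes. Without knockout guide 1 of experiment 2 the adjusted exact permutation p for globins, histones and the 100 genes was 0.0476.

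With guide as replicate block the counts were 8764, of which 2139 at least 2-fold, and 5007 within the knockout and 6574 within non-targeting libraries. Libraries of the same guide did not deviate together (correlations of −0.03 to 0.06), and those of the other guide of the same genotype had 0.02 to 0.16. So few libraries cannot settle whether guides act as pairs, and the main fit did not pair them.

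Over 123 genes and their alternatives, 2001 of 2079 values stayed on the same side of the threshold, 74 lost the call and 4 gained it. Among values called in either fit, 0 reversed direction. Direction was not compared where neither fit called the gene. Blocks of 20 or 80 genes, or genes of at least 1 CPM, chosen after seeing the data, gave lowest medians of −0.74, −0.52 and −0.64 and highest of 0.81, 0.67 and 0.77. Shares without mitochondrially encoded genes were not run, since the table used here lists none. Depth limits genes under 1 CPM most.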
